A study of Rattus norvegicus with 16 samples.

Results

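Potassium channel subunits were read as the probe sets whose single gene symbol in the platform annotation begins with Kcn, the prefix that the gene nomenclature gives to potassium channel genes. The Rat 230A array carried 108 such probe sets on 73 genes, among 15866 probe sets that are not controls. Of these, 48 probe sets on 36 genes reached a mean signal of 100 in at least 1 group and are called well-expressed here, and the other 60 are called dim. By role, 41 probe sets belonged to voltage-gated pore subunits (19 well-expressed), 17 to auxiliary subunits (5), 26 to inward rectifiers (15), 15 to tandem-pore channels (6), and 9 to calcium- or sodium-activated channels and their beta subunits (3).

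The study compared the left ventricles of male Wistar Kyoto (WKY) rats, which have normal blood pressure, with those of spontaneously hypertensive (SH) rats, after inhalation of clean air or diesel exhaust (DE). All rats were 12 to 14 weeks of age, and DE was given to the whole body at 2.0 mg/m3 on 5 days per week for 4 weeks. The sample labels give 6 hours per day and the methods of the study 4 hours per day. The 4 groups, called WKY-air, SH-air, WKY-DE and SH-DE, held 4 arrays each, described as biological replicates, and no agent or surgery other than the exposure is stated for any group. WKY rats are the usual normotensive comparison strain for SH rats, but the strains differ throughout the genome, so a strain difference cannot be told apart from a difference that accompanies blood pressure.

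Potassium channels let potassium leave the heart muscle cell and so end the action potential and set the resting potential. In the rat ventricle the transient outward current, carried by Kcnd2 and Kcnd3 pores with the calcium-binding subunit Kcnip2, gives the early fast repolarization, delayed rectifiers of the Kcnq, Kcnh and Kcna families follow it, and inward rectifiers of the Kcnj family hold the resting potential. Other Kcnj members form the acetylcholine-gated channel, which is prominent in the atrium, and the ATP-sensitive channel, while tandem-pore Kcnk channels give background leak. In hypertrophied and failing hearts, smaller potassium currents and longer action potentials are well known.

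All values are MAS5 signals on a linear scale, and fold changes are differences of log2(signal + 16.1), which understates the change of dim probe sets. A probe set was called when limma gave an adjusted p under 0.05 and the unadjusted p was also under 0.01. The signal of 1 probe set cannot be set against that of another, because probes differ in brightness at the same amount of RNA. In whole ventricle RNA, fewer cells of a type and less RNA per cell cannot be told apart.

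Each of the 10 measured genes listed for ventricular cardiomyocytes had a signal of at least 2432 on every array, which does not exclude atrial tissue. Their summed signal ran from 312947 to 423852 in WKY-air, from 288793 to 314467 in SH-air, from 237734 to 342023 in WKY-DE and from 229196 to 276948 in SH-DE, so SH-DE lay below SH-air without overlap and the WKY groups overlapped. Over these 10 genes the median log2 fold change with DE was −0.31 in WKY and −0.26 in SH, with 0 called by limma in either strain, and the part of this in the potassium channel results was not tested. RNA of atrial type was present in unequal amounts. The summed signal of 8 measured atrial markers ran from 34743 to 99036 in WKY-air, from 13578 to 25098 in SH-air, from 14223 to 44008 in WKY-DE and from 13984 to 35766 in SH-DE. Most of the sum in SH-air came from 1 of them, Nppa, which ran from 11632.5 to 23097 there and from 16396 to 50798 in WKY-air. The atrial light chain Myl7 lay at 33.4 to 154 in SH-air and at 4415 to 25946 in WKY-air, and it was highest in WKY-DE replicate 3 (9630) and SH-DE replicate 3 (7876) within their groups. SH-air was lower than WKY-air in 6 of these 8 atrial markers and in 5 of 8 fibroblast markers by the same call. Fits with the mean log2 level of the atrial markers as a covariate, or without WKY-DE replicate 3 and SH-DE replicate 3, are given beside the calls they change. That mean level ran from 10.23 to 11.65 in WKY-air and from 7.96 to 8.42 in SH-air. In air the covariate and the strain therefore cannot be told apart. With the covariate, calls over all probe sets went from 215 higher and 284 lower to 6 and 1 in SH-air against WKY-air. In WKY-DE against WKY-air they went from 217 and 81 to 2 and 0. The part of these cells in the potassium channel results was not tested.

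Among the 48 well-expressed probe sets, 28 had a mean of 100 or more in every group and 20 in some groups only, so membership of the latter depends on the group in which they were bright. By the mean over the 16 arrays, 40 probe sets reached 100. Just under the limit stood Kcng3, Kcnab3 and Kcnip4 with highest group means of 97.4, 97.8 and 99.4, and just above it Kcnn1, Kcnh5 and Kcna3 with 100.4, 100.5 and 103. The share of well-expressed probe sets was 44.4% for potassium channels and 71.4% for all probe sets. In 8 genes a well-expressed and a dim probe set stood side by side, and in 5 dim members the highest group mean was below the added offset of 16.1, where a fold change carries little information. Among the subunits best known from the ventricle, Kcna4, a transient outward pore, Kcnj12, an inward rectifier, Kcnma1, the large-conductance calcium-activated pore, and its beta subunit Kcnmb1 were dim, with highest group means of 70.8, 46.7, 94.0 and 60.4.

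The 2 genes called in any comparison, Kcnd2 and Kcnip2, encode partners in the same channel, a pore and its accessory subunit. Their promoters are shown for this reason, as the 250 bases before and 50 after the RefSeq transcription start, from the GRCr8 assembly and 5′ to 3′ on the strand of the gene. Capitals mark matches, on either strand, to TATAAA (the TATA box), GGGCGG (the core of a GC box), CANNTG (the core of an E-box), ACANNTGT (an E-box that contains CANNTG) or TGACGTCA (a cyclic AMP response element). The Kcnd2 promoter lies at chr4:50742235-50742534 on the plus strand and the Kcnip2 promoter at chr1:254613849-254614148 on the minus strand.
Kcnd2: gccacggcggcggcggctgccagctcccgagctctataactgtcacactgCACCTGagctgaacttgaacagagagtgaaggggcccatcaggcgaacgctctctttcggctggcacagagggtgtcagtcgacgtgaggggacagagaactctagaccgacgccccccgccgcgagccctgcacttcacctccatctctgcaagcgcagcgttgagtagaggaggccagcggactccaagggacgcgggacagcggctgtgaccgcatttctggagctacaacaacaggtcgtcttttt
Kcnip2: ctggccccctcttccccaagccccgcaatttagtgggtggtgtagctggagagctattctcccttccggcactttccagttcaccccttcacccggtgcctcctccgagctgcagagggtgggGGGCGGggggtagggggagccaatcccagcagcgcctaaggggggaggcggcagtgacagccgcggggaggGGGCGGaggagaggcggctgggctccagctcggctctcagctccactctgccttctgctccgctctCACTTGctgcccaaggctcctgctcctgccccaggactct
Each promoter held 1 match to CANNTG, and the Kcnip2 promoter held 2 matches to GGGCGG. Of 33469 promoters of this length 72.1% held CANNTG and 33.1% held GGGCGG, and so did 37 and 31 of the 56 potassium channel promoters that the table holds. TATAAA stood in 14.2% of all promoters and in 2 of the 56, ACANNTGT in 7.89% and in 5, and TGACGTCA in 1.83% and in 0, and none of these 3 stood in the promoters shown.

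The first comparison asked how the strains differ without exposure. In SH-air against WKY-air, 0 of 108 potassium channel probe sets were called by limma, where 3.15% of all 15866 probe sets were called. At an unadjusted p under 0.05, 19 were higher and 4 lower in SH-air, where 9.03% of all probe sets were higher and 8.52% lower. The median log2 fold change of the 108 was 0.10, beside 0.02 for all probe sets. Among the 40 whose mean over the 16 arrays reached 100, 14 were higher and 1 lower at that level and the median was 0.32, while 10.7% of all probe sets as bright were higher and 10.3% lower and their median was 0.02. Voltage-gated subunits supplied 10 of the 19 higher probe sets, inward rectifiers 3, and each of the other 3 roles 2. The roles differ in size: these were 24.4% of voltage-gated, 22.2% of calcium- or sodium-activated and 13.3% of tandem-pore probe sets. The shares were 11.8% for auxiliary subunits and 11.5% for inward rectifiers.

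In SH-DE against WKY-DE, 0 of 108 were called by limma, beside 0.813% of all probe sets, and at an unadjusted p under 0.05, 4 were higher and 8 lower in SH-DE, beside 4.53% and 8.74% of all probe sets. The median log2 fold change of the 108 was −0.10, beside −0.09 for all probe sets, and 35 were above 0. This direction turned after quantile normalization, with a median of 0.03, 58 of 108 above 0, and 5 higher and 5 lower at that level beside 5.97% and 5.27% of all probe sets. The air and DE comparisons share no arrays: 47 of 108 members were higher in SH under air and lower in SH under DE, 16 the other way, and 45 had the same sign in both. These are 43.5% and 14.8% of the members, and over all probe sets the shares were 31.1% and 15.6%. Over both exposures together, 1 of 108 was called by limma, Kcnip2, beside 4.07% of all probe sets, and 10 were higher and 6 lower at an unadjusted p under 0.05, beside 7.34% and 10.3% of all probe sets.

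**Figure D1:**
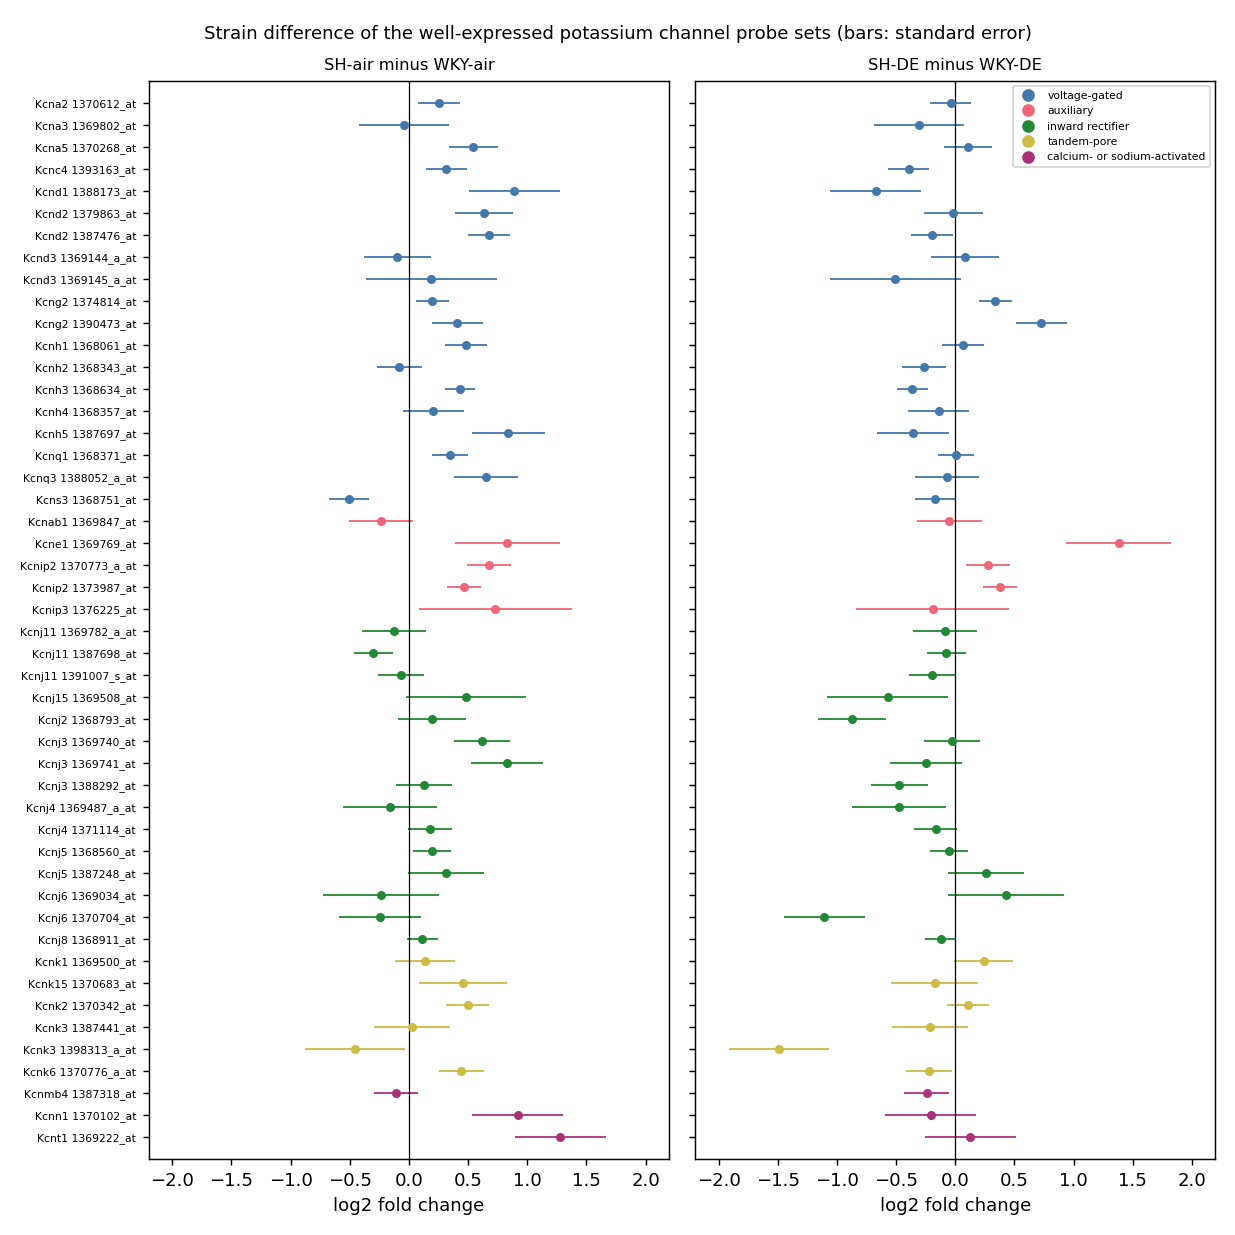
Log2 fold change between the strains (x axis, SH minus WKY, bars show the standard error from the limma model) for the 48 well-expressed probe sets, in air on the left and under DE on the right, coloured by role. In air 15 of 19 voltage-gated and 4 of 5 auxiliary points lie right of 0, Kcnd2 (1387476_at) at 0.68 among them. Under DE many points lie near or left of 0, with Kcnk3 (1398313_a_at) lowest at −1.49 and Kcne1 highest at 1.38. Of all probe sets with a group mean of 100 or more, 52.8% lie above 0 in air and 39.5% under DE. Of the 48 shown, 20 reached 100 in some groups only, so their membership depends on the groups compared.

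The second question was what DE changed within each strain. In WKY-DE against WKY-air, 1 of 108 probe sets, on Kcnd2, was called by limma, beside 1.88% of all probe sets. At an unadjusted p under 0.05, 16 were higher and 4 lower, beside 14% and 6.42% of all probe sets. The 108 had a median log2 fold change of 0.18 and all probe sets 0.10. After quantile normalization 6 members were higher and 7 lower at that level, beside 8.63% and 8.58% of all probe sets. Both medians were then smaller, 0.03 and 0.01, and the calls over all probe sets went from 217 higher and 81 lower to 44 higher and 47 lower. Among the 40 whose mean over the 16 arrays reached 100, 11 were higher and 2 lower before quantile normalization, with a median of 0.28. All probe sets as bright had 15.3% higher, 8.0% lower and a median of 0.07. After quantile normalization 5 of the 40 were higher and 4 lower, with a median of 0.12. In SH-DE against SH-air, 0 of 108 were called by limma, beside 0% of all probe sets, with 2 higher and 3 lower at an unadjusted p under 0.05, beside 3.23% and 2.92% of all probe sets, and the median was −0.11 while that of all probe sets was near 0.

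No array is shared by these 2 comparisons. Of the 108, 45 were higher with DE in WKY and lower with DE in SH, 12 the other way, and 51 had the same sign in both. The opposite signs make up 41.7% and 11.1% of the members, and 29.8% and 17.7% of all probe sets. Tested as the strain by DE interaction, which is the DE effect in SH minus that in WKY, 0 of 108 were called by limma, beside 0.0063% of all probe sets. At an unadjusted p under 0.05, 2 members were higher and 11 lower, beside 4.27% and 8.18% of all probe sets. Voltage-gated subunits, which are 41 of the 108, supplied 7 of the 11. The median interaction of the 108 was −0.25, beside −0.09 for all probe sets, and −0.13 beside −0.01 after quantile normalization, when 2 were higher and 7 lower beside 5.64% and 5.42%. Of the 40 with a mean over the 16 arrays of 100 or more, 0 were higher and 6 lower before that normalization, and their median was −0.34. All probe sets as bright had 5.30% higher, 8.15% lower and a median of −0.06. After it, 0 of the 40 were higher and 4 lower, with a median of −0.24. For DE over both strains together, 0 of 108 were called by limma, beside 0.145% of all probe sets, and 8 were higher and 4 lower at an unadjusted p under 0.05, beside 10.1% and 5.02% of all probe sets. The balance reversed after quantile normalization, with 5 higher and 10 lower beside 6.42% and 6.38%, and the median of the 108 went from 0.06 to −0.02.

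**Figure D2:**
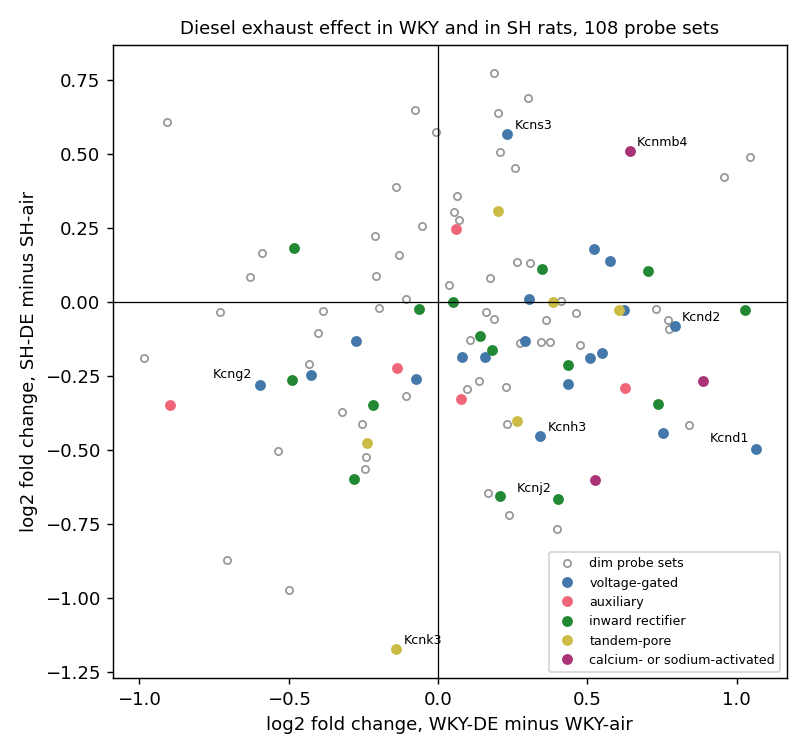
Log2 fold change with DE in WKY rats (x axis, WKY-DE minus WKY-air) against that in SH rats (y axis, SH-DE minus SH-air) for all 108 probe sets, with dim ones as open circles. The lower right part, higher in WKY and lower in SH, holds 45 probe sets, with Kcnd2 at 0.79 in WKY and −0.08 in SH.

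Kcnd2, the pore of the fast transient outward current, was the member that rose with DE in WKY rats. On its probe set 1387476_at the 4 arrays read 165, 194, 148 and 169 in WKY and 285, 283, 247 and 302 in SH rats that breathed air, and 201, 341, 336 and 367 in WKY and 212, 239.5, 305 and 305 in SH rats exposed to DE. Every WKY-DE and every SH-air array lay above every WKY-air array, whereas SH-DE overlapped both SH-air and WKY-DE. The means were 169 ± 19.2 (SD, n = 4) for WKY-air, 279 ± 23.0 for SH-air, 311 ± 74.9 for WKY-DE and 265 ± 47.1 for SH-DE. The DE effect in WKY was 0.79 ± 0.18 on the log2 scale (SE, limma adjusted p = 0.0395), whereas in SH it was −0.08 ± 0.18 on the log2 scale (SE, limma adjusted p = 0.979). The interaction missed the call, at −0.87 ± 0.25 on the log2 scale (SE, limma adjusted p = 0.225), so the DE effect was not shown to differ between the strains. In SH-air against WKY-air the difference was 0.68 ± 0.18 on the log2 scale (SE, limma adjusted p = 0.0515).

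The call of Kcnd2 in WKY was close to the limit. Leaving out 1 array at a time kept the log2 fold change between 0.71 and 0.98, but the call was lost without any 1 of the WKY-air arrays, without WKY-DE replicate 2, 3 or 4, or without SH-air replicate 4. It was also lost after quantile normalization (0.67, adjusted p = 0.0811), in a model of the 2 groups alone (adjusted p = 0.112), with array weights (0.64, adjusted p = 0.0734), with the atrial markers as a covariate (0.88, adjusted p = 0.120) and without WKY-DE replicate 3 and SH-DE replicate 3 (0.75, adjusted p = 0.0847), all by limma. A second Kcnd2 probe set, 1379863_at, had 147, 187, 195 and 146 in WKY and 427, 239, 189 and 267 in SH rats that breathed air, and 191, 214, 381 and 323 in WKY and 200.05, 300.3, 263 and 306 in SH rats exposed to DE. It ran the same way, with a DE effect in WKY of 0.62 ± 0.25 on the log2 scale (SE, limma adjusted p = 0.172) and a strain difference in air of 0.63 ± 0.25 on the log2 scale (SE, limma adjusted p = 0.195), but its groups overlapped.

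Kcnip2, whose protein binds the Kcnd pores and is needed for a full transient outward current, was the member called between the strains. Probe set 1373987_at read 6500.2, 8412, 8646 and 7699.9 in WKY and 13637, 9211, 10106 and 10431 in SH rats that breathed air, and 7349, 6352, 6783 and 7849 in WKY and 8911, 10662, 7894 and 9508 in SH rats exposed to DE. At each exposure all 4 SH arrays were above all 4 WKY arrays, although SH-DE replicate 3 fell below the brightest WKY-air arrays. The means were 7815 ± 964 (SD, n = 4) for WKY-air, 10846 ± 1931 for SH-air, 7083 ± 654 for WKY-DE and 9244 ± 1157 for SH-DE. Over both exposures SH was higher by 0.42 ± 0.10 on the log2 scale (SE, limma adjusted p = 0.0306), with 0.46 in air and 0.38 under DE. With DE it differed by −0.14 in WKY and −0.22 in SH, and neither was called.

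The call of Kcnip2 was lost in 10 of the 16 fits that left out 1 array, with adjusted p up to 0.0717, while the log2 fold change stayed between 0.36 and 0.46. The 10 were those without WKY-air replicate 1 or 4, WKY-DE replicate 1, 2 or 3, SH-air replicate 1 or 4, or SH-DE replicate 1, 2 or 4. With the atrial markers as a covariate the difference was 0.29 (limma adjusted p = 0.738). Probe set 1370773_a_at gave 951, 1277, 1190.2 and 1040.3 in WKY and 1577, 1566, 2288 and 1796 in SH rats that breathed air, and 1437, 1337, 845 and 1154 in WKY and 1653, 1516, 1100.3 and 1474 in SH rats exposed to DE. In air its groups did not overlap, with a difference of 0.68 ± 0.19 on the log2 scale (SE, limma adjusted p = 0.0621), which went to −0.039 with the atrial covariate. Over both exposures it differed by 0.48 ± 0.13 on the log2 scale (SE, limma adjusted p = 0.0563). Without WKY-DE replicate 3 and SH-DE replicate 3 it was called in air (0.68, limma adjusted p = 0.0264) and over both exposures (0.46, adjusted p = 0.0368). The third Kcnip2 probe set, 1368639_at, was dim, with group means of 20.9 to 35.3.

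The other transient outward pores gave no call. Kcnd3, whose 2 probe sets were well-expressed, had opposite signs with DE in WKY, at −0.42 on 1369144_a_at and 0.51 on 1369145_a_at, with standard errors of 0.29 and 0.55. Kcnd1, a related pore that is scarce in the ventricle, was at 46.7 ± 29.6 in WKY-air and 104 ± 11.9 in WKY-DE without overlap, with 1.06 ± 0.38 on the log2 scale (SE, limma adjusted p = 0.142). Kcna4 was dim in all groups (49.7 to 70.8).

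Among the delayed rectifiers, Kcne1, the small subunit that slows the Kcnq1 channel, showed the largest strain difference of the auxiliary subunits under DE. Its arrays read 163, 185, 111 and 44.2 in WKY and 137, 348, 200.1 and 213 in SH rats that breathed air, and 89.1, 55.0, 83.7 and 14.7 in WKY and 274, 187, 139.5 and 99.3 in SH rats exposed to DE. All SH-DE arrays were above all WKY-DE arrays, whereas the air groups overlapped. The strain difference under DE was 1.38 ± 0.44 on the log2 scale (SE, limma adjusted p = 0.183), and over both exposures 1.11 ± 0.31 on the log2 scale (SE, limma adjusted p = 0.0648), neither called. Kcnq1 itself, the slow delayed rectifier pore, had 562 ± 108 in WKY-air and 715 ± 81.8 in SH-air (0.35 ± 0.15 SE on the log2 scale, limma adjusted p = 0.244). Kcnh2, the pore of the rapid delayed rectifier, ranged over group means from 182 to 236 and its fold changes in the 4 single comparisons ran from −0.27 to −0.07.

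Kcna5, the ultrarapid delayed rectifier of the atrium, was at 96.0 ± 28.9 in WKY-air and 144 ± 28.8 in SH-air, with no overlap and a difference of 0.55 ± 0.21 on the log2 scale (SE, limma adjusted p = 0.181). With the atrial markers as a covariate this difference was 0.09 ± 0.33 (SE, limma adjusted p = 0.985). Kcnab1, a cytoplasmic beta subunit of Kcna channels, stayed between 161 and 195 in group mean. The other well-expressed voltage-gated and auxiliary members, Kcna2, Kcna3, Kcnc4, Kcnh1, Kcnh4, Kcnh5, Kcnq3 and Kcnip3, reached neither a call nor an unadjusted p under 0.01 in any comparison.

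**Figure D3:**
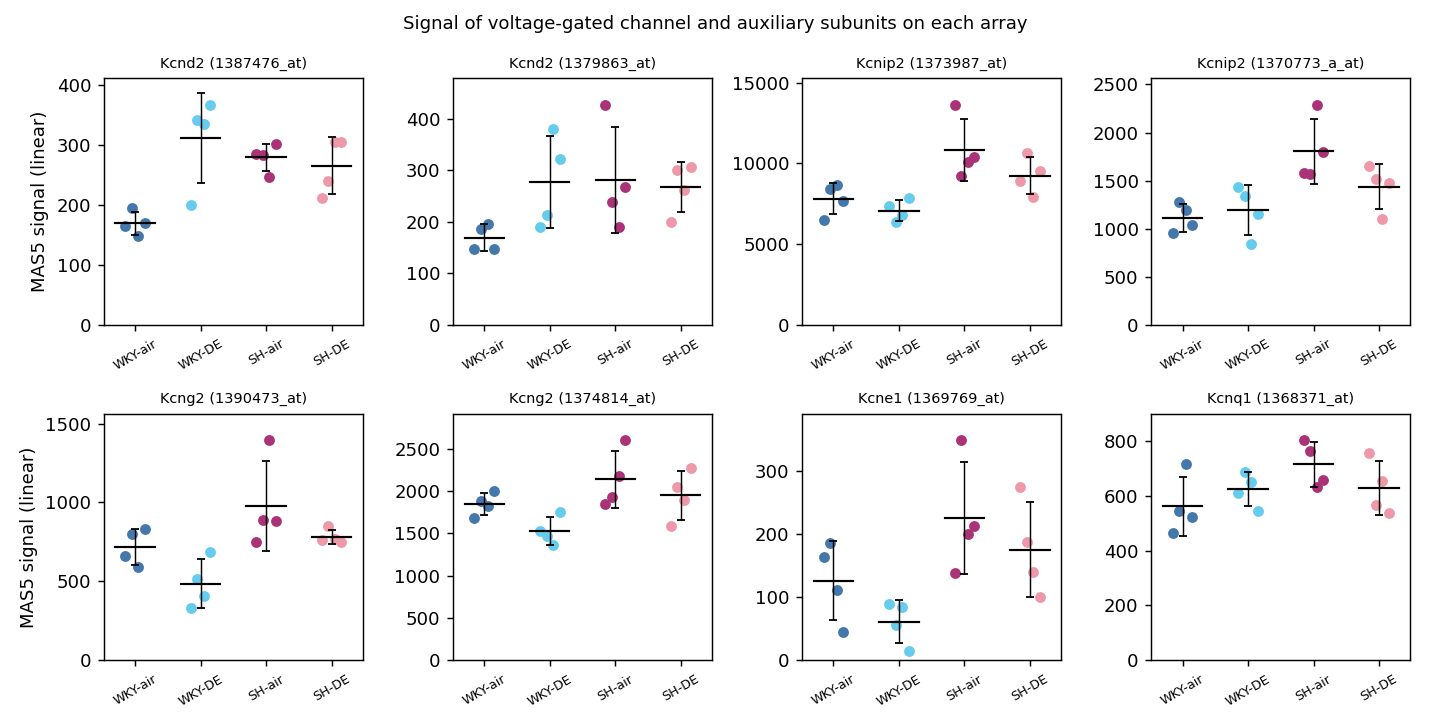
Signal on each array (y axis, linear MAS5 signal from 0, x axis, the 4 groups) for 8 probe sets of voltage-gated and auxiliary subunits, with a bar at the mean and whiskers of 1 SD (n = 4). Kcnd2 (1387476_at) is lowest in WKY-air at 169, and Kcnip2 (1373987_at) is higher in the SH group at each exposure.

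Kcng2, a pore-like subunit that does not conduct alone and modifies other voltage-gated pores, had 3 probe sets. On 1390473_at the signals were 658, 800.5, 589.6 and 829 in WKY and 749, 889, 1394 and 881 in SH rats that breathed air, and 329, 512, 404 and 688 in WKY and 763, 849, 769 and 747 in SH rats exposed to DE. The 4 SH-DE values lay close together and above all WKY-DE values, a difference of 0.73 ± 0.22 on the log2 scale (SE, limma adjusted p = 0.152). Over both exposures the strain difference was 0.57 ± 0.15 on the log2 scale (SE, limma adjusted p = 0.0528), just past the limit, and on 1374814_at it was 0.27 ± 0.10 on the log2 scale (SE, limma adjusted p = 0.164). Both probe sets were lower with DE in WKY without a call, at −0.60 and −0.27. The third, 1377477_at, was dim.

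Kcns3, another silent modifier subunit, gave 144, 181, 130.03 and 166 in WKY and 154, 90.4, 92.6 and 88.4 in SH rats that breathed air, and 197, 184, 210.1 and 150.3 in WKY and 157, 150.2, 187 and 153 in SH rats exposed to DE. In SH-air 3 arrays lay between 88.4 and 92.6 and replicate 1 was at 154, within the range of the other groups. The strain difference in air was −0.51 ± 0.17 on the log2 scale (SE, limma adjusted p = 0.123), and the DE effect in SH rats was 0.57 ± 0.17 on the log2 scale (SE, limma adjusted p = 0.628). Over both strains the DE effect was 0.40 ± 0.12 on the log2 scale (SE, limma adjusted p = 0.147).

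Kcnh3, a voltage-gated pore best known from the brain, had the lowest interaction p of the members. Its signals were 415, 402, 333 and 441 in WKY and 571, 607, 430.1 and 567 in SH rats that breathed air, and 538, 536, 501 and 454 in WKY and 424, 412, 367 and 361 in SH rats exposed to DE. All WKY-DE arrays were above all WKY-air arrays, and all SH-DE arrays were below all SH-air and all WKY-DE arrays. With DE it differed by 0.34 ± 0.13 on the log2 scale (SE, limma adjusted p = 0.156) in WKY and by −0.45 ± 0.13 on the log2 scale (SE, limma adjusted p = 0.628) in SH. The interaction was −0.79 ± 0.18 on the log2 scale (SE, limma adjusted p = 0.155), which misses the call. In air SH differed from WKY by 0.43 ± 0.13 on the log2 scale (SE, limma adjusted p = 0.0880).

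Inward rectifiers of the resting potential came next. Kcnj2, the main pore of the classical inward rectifier, had 176, 71.9, 67.3 and 96.1 in WKY and 106, 139.95, 103 and 104 in SH rats that breathed air, and 102, 138, 136 and 159 in WKY and 32.4, 111, 55.5 and 81.3 in SH rats exposed to DE. SH-DE held the 2 lowest values, but WKY-air replicate 1 was the highest of all 16 and the groups overlapped. The strain difference under DE was −0.87 ± 0.29 on the log2 scale (SE, limma adjusted p = 0.197). Its relative Kcnj4 had group means of 196 to 228 on 1371114_at. The 2 well-expressed Kcnj4 probe sets gave −0.48 and −0.16 in SH-DE against WKY-DE and −0.60 and −0.16 in SH-DE against SH-air, without a call. Kcnj12 was dim.

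The ATP-sensitive channel, which opens when energy runs short, has the pores Kcnj11 and Kcnj8. Kcnj11 had 3 well-expressed probe sets. On 1387698_at the signals were 1199, 849, 1033 and 986 in WKY and 826, 738, 862 and 847 in SH rats that breathed air, and 797, 794, 504 and 819.6 in WKY and 768, 596, 793 and 582 in SH rats exposed to DE. WKY-DE lay wholly below WKY-air, with replicate 3 lowest. The DE effect was −0.49 ± 0.17 on the log2 scale (SE, limma adjusted p = 0.126) in WKY and −0.37 ± 0.12 on the log2 scale (SE, limma adjusted p = 0.173) over both strains, without a call. The other 2 probe sets gave −0.28 and −0.04 for DE over both strains. Kcnj8, the vascular form, differed in the other direction, with 572 ± 72.9 in WKY-air and 734 ± 96.5 in WKY-DE (0.35 ± 0.13 SE on the log2 scale, limma adjusted p = 0.156).

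The acetylcholine-gated channel is built from Kcnj3 and Kcnj5. Kcnj3 was higher in WKY-DE than in WKY-air on each of 3 probe sets, by 0.44, 0.74 and 0.70, with no call, and 1388292_at alone had no overlap, at 191 ± 41.6 against 324 ± 91.2. In SH-air against WKY-air the 3 gave 0.62, 0.83 and 0.13. Kcnj5 on 1368560_at was 379.6 ± 86.3 in WKY-air, 433 ± 58.4 in SH-air, 416 ± 65.8 in WKY-DE and 397 ± 24.3 in SH-DE. With the atrial markers as a covariate, SH-air against WKY-air gave 0.67, 0.45 and −0.31 on the Kcnj3 probe sets. For Kcnj5 it gave 0.52 on 1368560_at and 0.85 on 1387248_at, and none of these was called by limma. The part of atrial RNA in these values was not tested.

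**Figure D4:**
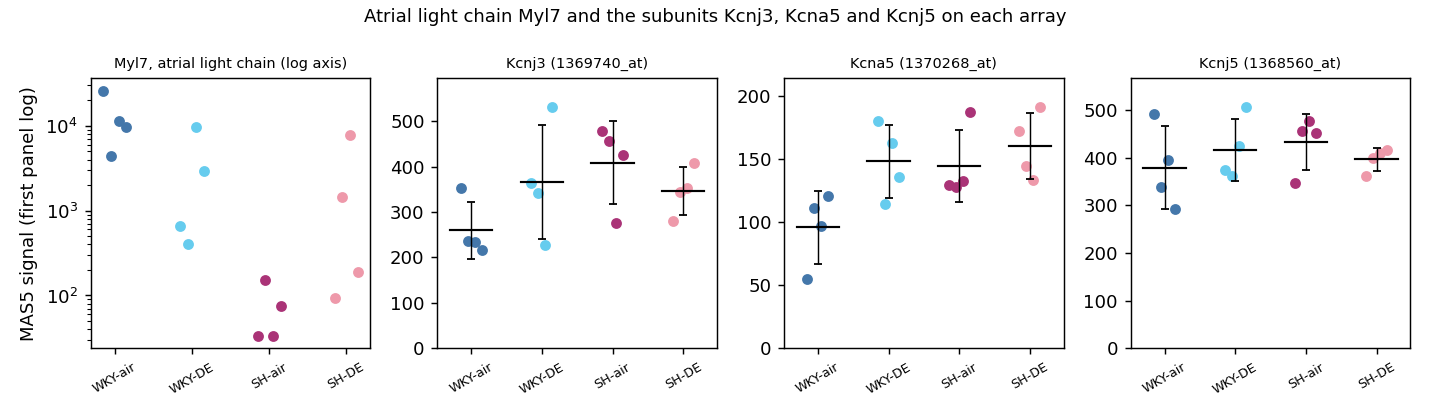
Signal on each array of the atrial light chain Myl7 (first panel, log axis) and of Kcnj3, Kcna5 and Kcnj5 (linear axes from 0, with the mean and 1 SD, n = 4). Myl7 is at 33.4 to 154 in SH-air and at 4415 to 25946 in WKY-air, and Kcna5 has means of 96.0 in WKY-air and 144 in SH-air.

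The dimmer inward rectifiers were less steady. Kcnj6, which forms acetylcholine-gated channels chiefly in neurons, read 149, 92.6, 82.1 and 71.9 in WKY and 60.9, 134, 73.6 and 60.7 in SH rats that breathed air, and 98.1, 93.4, 119 and 148 in WKY and 80.4, 83.2, 20.8 and 20.6 in SH rats exposed to DE on 1370704_at. SH-DE lay below WKY-DE without overlap (−1.11 ± 0.35 SE on the log2 scale, limma adjusted p = 0.170), while its second well-expressed probe set, 1369034_at, gave 0.43 there. Kcnj16, a pH-sensitive subunit known from kidney and glia, read 76.9, 51.7, 80.1 and 7.42 in WKY and 9.71, 4.31, 10.3 and 11.1 in SH rats that breathed air, and 24.0, 14.5, 18.2 and 11.3 in WKY and 13.5, 64.2, 9.53 and 17.6 in SH rats exposed to DE on 1370076_at. It was dim in every group, all 4 SH-air values were below the offset, and the strain difference in air was −1.31 ± 0.41 on the log2 scale (SE, limma adjusted p = 0.101).

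Among the tandem-pore channels Kcnk3, an acid-sensitive leak channel, had the lowest p between the strains under DE. Probe set 1398313_a_at gave 201, 257, 95.0 and 268 in WKY and 119, 114, 145 and 169 in SH rats that breathed air, and 226, 209.8, 82.9 and 219 in WKY and 41.0, 96.6, 13.1 and 92.0 in SH rats exposed to DE. SH-DE lay below SH-air without overlap, while WKY-DE replicate 3 fell within the SH-DE range. The strain difference was −1.49 ± 0.42 on the log2 scale (SE, limma adjusted p = 0.131) under DE and −0.98 ± 0.30 on the log2 scale (SE, limma adjusted p = 0.0868) over both exposures. With the atrial markers as a covariate the difference under DE was −1.85 and was called (limma adjusted p = 0.0383), and without WKY-DE replicate 3 and SH-DE replicate 3 the difference over both exposures was −0.93 and was called (adjusted p = 0.0348). The probe sets of this gene disagreed: 1387441_at gave −0.21 under DE, with 548 ± 139 in WKY-DE and 509 ± 257 in SH-DE, and the dim 1375807_at gave 0.55.

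Kcnk2, a leak channel opened by membrane stretch, was at 197 ± 9.80 in WKY-air, 291 ± 73.8 in SH-air, 266 ± 51.5 in WKY-DE and 287 ± 45.8 in SH-DE. Both WKY-DE and SH-air lay wholly above WKY-air, by 0.39 and 0.50 with adjusted p of 0.236 and 0.159 (limma), and these 2 differences share the WKY-air arrays. Kcnk5, an alkaline-activated leak channel, was dim with 28.6, 79.0, 20.8 and 51.4 in WKY and 25.7, 16.0, 20.3 and 22.1 in SH rats that breathed air, and 19.1, 7.17, 9.35 and 17.0 in WKY and 22.9, 16.3, 12.6 and 14.4 in SH rats exposed to DE. WKY-DE lay below WKY-air without overlap, at −0.99 ± 0.24 on the log2 scale (SE, limma adjusted p = 0.0532), with 2 of the 4 WKY-DE values below the offset.

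Of the calcium- and sodium-activated channels, Kcnmb4, a beta subunit of the large-conductance calcium-activated channel, was nearest to a DE effect in both strains. Its signals were 165, 96.1, 207 and 177 in WKY and 138, 156, 127 and 154 in SH rats that breathed air, and 190.4, 286, 277 and 268 in WKY and 180.2, 233, 219 and 215 in SH rats exposed to DE. All SH-DE arrays were above all SH-air arrays, and in WKY only replicate 1 of WKY-DE lay within the WKY-air range. The effect was 0.64 ± 0.19 on the log2 scale (SE, limma adjusted p = 0.0872) in WKY, 0.51 ± 0.19 on the log2 scale (SE, limma adjusted p = 0.740) in SH and 0.58 ± 0.13 on the log2 scale (SE, limma adjusted p = 0.102) over both strains. It passed the call over both strains (adjusted p = 0.0401) and in WKY (adjusted p = 0.0431) when limma was run without the dimmest 40% of probe sets. Its pore Kcnma1 was dim on 3 probe sets, whose DE effects in WKY were −0.32, 1.04 and −0.43.

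With all arrays in the fit, Kcnt1, a sodium-activated pore known mainly from neurons, showed the widest strain difference in air among the well-expressed members. Its arrays read 96.3, 67.8, 43.4 and 13.7 in WKY and 142, 141, 139 and 134 in SH rats that breathed air, and 136, 146, 37.7 and 130.2 in WKY and 141, 121, 74.2 and 127 in SH rats exposed to DE. The SH-air values were tightly grouped above all WKY-air values. The difference was 1.28 ± 0.38 on the log2 scale (SE, limma adjusted p = 0.0897), and 0.50 with the atrial covariate. WKY-air replicate 4, at 13.7, lay below the added offset, which limits what can be read from this fold change. Leaving out 1 array at a time gave 0.91 to 1.55, where Kcnn1 had 0.92 with all arrays. The Kcnt1 difference was called without WKY-DE replicate 3 and SH-DE replicate 3, which enter this comparison only through the pooled spread (1.28 ± 0.30, limma adjusted p = 0.0373). WKY-DE replicate 3 and SH-DE replicate 3 were the lowest arrays of their groups. The remaining well-expressed members of these roles and of the inward rectifiers, Kcnj15, Kcnk1, Kcnk6, Kcnk15 and Kcnn1, had no unadjusted p under 0.01 in any comparison.

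**Figure D5:**
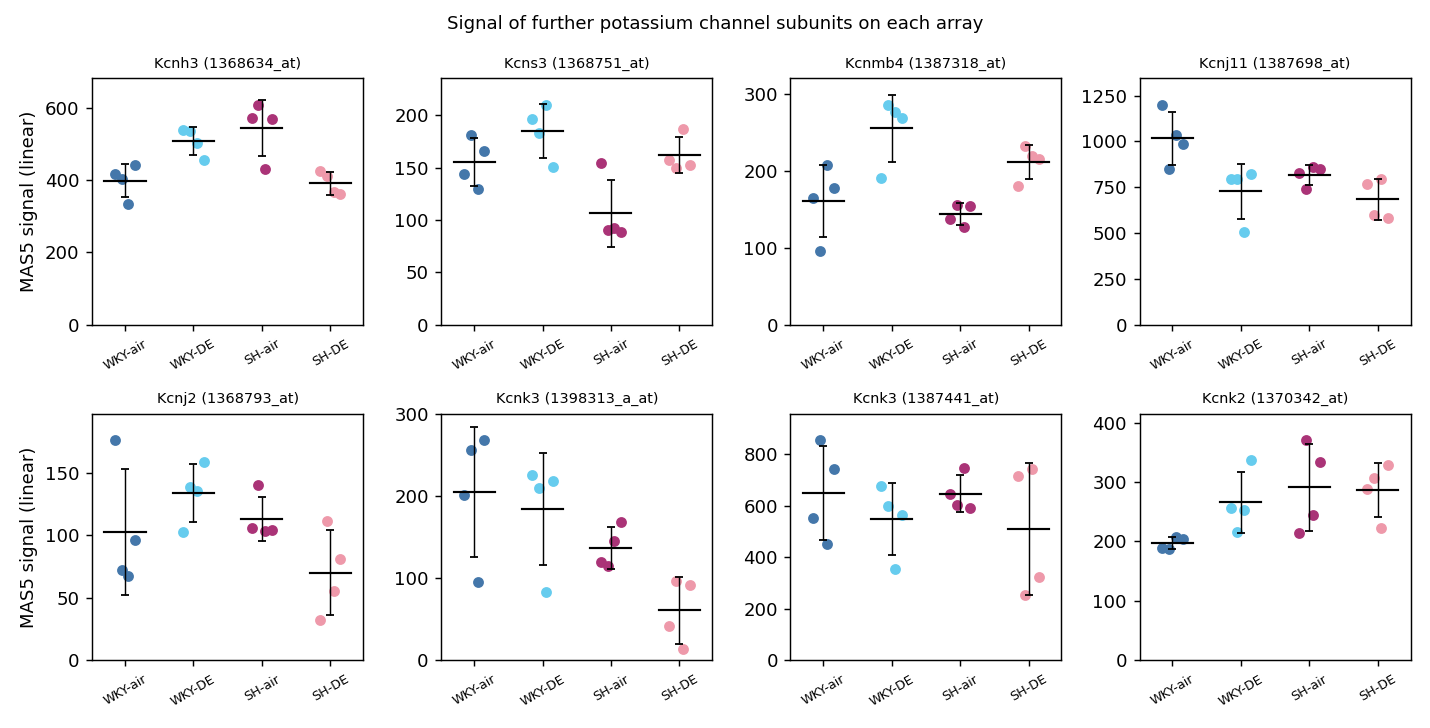
Signal on each array (y axis, linear MAS5 signal from 0, x axis, the 4 groups) for 8 further probe sets, with a bar at the mean and whiskers of 1 SD (n = 4). Kcnh3 is higher with DE in WKY (507 against 398) and lower with DE in SH (391 against 544), and Kcnmb4 is higher with DE in each strain.

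Genes that work beside these channels were taken from a list of 34 partners, of which 24 were measured. Cacnb2, an auxiliary subunit of the L-type calcium channel, was lower in SH over both exposures. The difference was −0.29 ± 0.07 on the log2 scale (SE, limma adjusted p = 0.0287). Irx4, a ventricular homeobox transcription factor, was lower with DE in WKY, at 60.4 ± 23.4 in WKY-air and 11.4 ± 3.65 in WKY-DE. Its DE effect was −1.44 ± 0.28 on the log2 scale (SE, limma adjusted p = 0.0291). The WKY-DE mean of Irx4 was below the added offset of 16.1, which limits what can be read from this fold change. Cacnb2 and Irx4 were each the only partner of 24 called in their comparison, where 4.07% and 1.88% of all probe sets were called. The other 5 comparisons had 0 calls by limma, where 0% to 3.15% of all probe sets were called. In those 5, at most 5 of 24 had an unadjusted p under 0.05. In SH-air against WKY-air 2 were higher and 3 lower, beside 9.03% and 8.52% of all probe sets. In SH-DE against WKY-DE 3 were higher and 2 lower, beside 4.53% and 8.74%. The sulfonylurea receptors, the regulatory partners of Kcnj11 and Kcnj8, were not called, with Abcc9 at 1729 ± 222 in WKY-air and 2301 ± 269 in SH-air and Abcc8 at 415 ± 28.6 and 394 ± 39.9. The median log2 fold change of the 24 was −0.01 in SH-air and 0.04 in WKY-DE, against WKY-air.

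The 60 dim probe sets showed no call in any comparison, where 0% to 4.07% of all probe sets were called. At an unadjusted p under 0.05 they gave 2 higher and 3 lower in SH-air against WKY-air, beside 9.03% and 8.52% of all probe sets. They gave 0 and 3 in SH-DE against WKY-DE, beside 4.53% and 8.74%. With DE they gave 3 and 2 in WKY, beside 14% and 6.42%, and 0 and 0 in SH, beside 3.23% and 2.92%. These shares are not matched for brightness, because 71.4% of all probe sets reached a group mean of 100. The dim members were not compared with probe sets as dim, so a shortfall particular to them cannot be read from these counts. The typical (median) standard error between 2 groups was 0.39 for dim and 0.25 for well-expressed members, so that the change of Kcnd2 in WKY would have come to about 2 standard errors in a typical dim member.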

How the data were processed

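RNA from 16 left ventricles, 4 per group, was measured on the Affymetrix Rat 230A array. The deposited table gives a linear intensity for every probe set on every array, which the authors computed with MAS5 per the labels (version not given in the sources used here), and each array has a mean of about 500 after trimming 2% at each end. The published gene lists came from RMA values, which were not used here.

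After removal of 57 control probe sets, 15866 of 15923 were converted to log2(intensity + 16.1), the 10th percentile of all values. The 4 groups were fitted in 1 linear model with limma 3.58.1 in R 4.3.3 (12 residual and 2.68 prior degrees of freedom), with Benjamini-Hochberg adjustment over 15866 probe sets, and the calculation was tested on simulated data. A call needed an unadjusted p under 0.01 as well as the adjusted p under 0.05, the limits that the study's methods name. The precision is limited by the number of arrays, and p-values measure the spread between these rats. The study describes 1 exposure chamber for each concentration, so a DE effect cannot be told apart from a difference between chambers. The p-values hold no spread between chambers.

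Names came from the platform annotation, in which 12783 of the tested probe sets have 1 gene, 312 several and 2771 no entry. Promoters came from RefSeq on GRCr8. The members and gene lists were chosen with earlier results of these data known. Genes were named when called in any comparison, well-expressed, under an unadjusted p of 0.01, or well known from the ventricle. Partner genes are represented by their brightest probe set. Array values correlated at 0.933 to 0.968 on the log2 scale. Alternatives were array weights, quantile normalization, other offsets, a robust fit with a trend on intensity, removal of the dimmest 40% of probe sets, an atrial marker covariate, a block for the replicate number, fits of the compared groups only, leaving out arrays and a stricter threshold.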

Additional observations from a re-analysis of the deposited data

Results flagged for a closer look

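In 6 of 60 groups of 4 arrays (15 probe sets of potassium channel genes), 1 array stood apart from the other 3, and chance alone sets 1 array apart in about 1 in 20 groups. WKY-DE replicate 3 was the lowest of its group by such a gap for Kcnt1 (37.7), Kcnj11 on 1387698_at (504) and Kcnk3 on 1398313_a_at (82.9), and it also had the highest Myl7 signal of its group (9630). The part of that array's atrial RNA in these values was not tested. SH-air replicate 1 was highest for Kcns3 (154), SH-air replicate 2 for Kcnj2 (139.95) and SH-DE replicate 2 for Kcnj16 on 1370076_at (64.2).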

How the results depend on the processing

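The number of potassium channel probe sets called was at most 5 under the alternatives run. In SH-air against WKY-air it went from 0 to 2 with an offset at the 25th percentile (62.5) or without WKY-DE replicate 3 and SH-DE replicate 3, to 3 without the dimmest 40% of probe sets or with an intensity trend, and to 0 to 2 without 1 array. In SH-DE against WKY-DE it went from 0 to 1 with the atrial covariate and stayed 0 without any 1 array. For strain over both exposures it went from 1 to 4 with the larger offset, 2 after quantile normalization, 5 without the dimmest 40%, with an intensity trend or with array weights, 3 without both replicate 3 arrays, 0 with the atrial covariate or at an adjusted p under 0.01, and 0 to 3 without 1 array. In WKY-DE against WKY-air it went from 1 to 2 without the dimmest 40%, to 0 after quantile normalization, with the compared groups alone, with the atrial covariate, without both replicate 3 arrays or at an adjusted p under 0.01, and to 0 to 1 without 1 array. With array weights the call in WKY was Kcnk5 in place of Kcnd2. For DE over both strains it went from 0 to 1, on Kcnmb4, without the dimmest 40%, and for SH-DE against SH-air and the interaction it was 0 throughout. The cause of these moves was not tested, beyond the fewer probe sets or arrays in some of the fits.

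With the replicate number as a block, 2 probe sets were called for strain over both exposures, Kcne1 and Kcnk3 in place of Kcnip2 (adjusted p = 0.0771), and 0 in each of the other comparisons, Kcnd2 in WKY having an adjusted p of 0.0554. Deviations of arrays with the same number correlated at −0.10 to 0.05, so the numbers were not taken to pair the arrays. Over single members, 637 alternative values of 25 fold changes kept direction and call in 567, gained a call in 43, lost it in 26 and reversed in 1, Kcnip2 (1370773_a_at) in SH-air against WKY-air, at −0.039 with the atrial covariate. Only 2 of the 25 were called in the main fit, Kcnd2 in WKY and Kcnip2 over both exposures, so all 26 losses fell on them. For the others, keeping the call meant staying uncalled. Leaving out 1 array lost the Kcnd2 call in 8 of 16 fits and the Kcnip2 call in 10 of 16. The number of well-expressed probe sets was 48, and it was 40 by the mean over all arrays, 28 with every group mean at 100 or more and 25 at a limit of 200. Signals below the offset, as in Kcnj16 and Kcnk5, limit what can be read from dim members. The same limit holds for the well-expressed Kcne1, Kcnt1 and Kcnk3 (1398313_a_at), which each had an array below it. Without 1 array at a time, the strain difference under DE ran from 0.99 to 1.60 for Kcne1 and from −1.80 to −1.09 for Kcnk3.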
